A study of Mus musculus with 24 samples.

Results

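Survival and apoptosis regulators were followed here as 10 genes that restrain or promote cell death: Mcl1, Bcl2l1, Bcl2l11 and Pmaip1 of the BCL-2 family, the inhibitor-of-apoptosis genes Birc2 and Birc3, the caspase-8 regulator Cflar, the signalling adaptor Bcl10, and the stress-response genes Gadd45a and Gadd45b. They were taken by symbol from a table of normalised gene expression. All 10 were found, each on 1 row, among 24273 genes, and all 10 passed the filter on low values. Expression had been measured by RNA-seq in bone marrow-derived macrophages (BMDMs), which are mouse marrow cells cultured with L-cell conditioned medium until they become macrophages. Every library came from cells with LysM-Cre, a Cre recombinase driven from the myeloid lysozyme locus Lyz2, and the mice had been backcrossed to C57BL/6. Libraries labelled FosKO came from Fos fl/fl LysM-Cre cells. The controls, labelled LysM-Cre, are given no floxed allele by the series' design text and 1 floxed Fos allele (Fos fl/+) by the study's text. Cells were unstimulated (0 h) or received 100 ng/ml lipopolysaccharide (LPS), a bacterial agonist of TLR4, for 0.5, 1 or 2 h, with 3 libraries in each of the 8 groups and 24 in all. The animals' age and the number of mice behind the 3 libraries of a group are not given in the sources used here, so the p-values measure the spread between libraries, which may be partly technical.

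Apoptosis through mitochondria is set by the balance between guardians such as MCL-1 and BCL-xL (the product of Bcl2l1), which hold BAX and BAK in check, and BH3-only proteins such as BIM (Bcl2l11) and NOXA (Pmaip1), which neutralise the guardians. Death receptors and TNF receptor 1 work through caspase-8, which cFLIP (Cflar) restrains, while the ubiquitin ligases cIAP1 (Birc2) and cIAP2 (Birc3) keep receptor signalling directed to NF-κB. BCL10 works with the protease MALT1 upstream of NF-κB, and the GADD45 proteins bind stress kinases and cell cycle regulators. Several of these genes are known NF-κB targets, and in macrophages they are known to limit death during the response to bacterial products.

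The values were log2 normalised expression, on which a difference of 1 is a 2-fold change. The transformation used is not stated and may have shrunk differences, mainly those of low genes, so folds here are on the deposited scale. Levels are compared between groups within a gene, never between genes, because the values were not divided by gene length. Fos, the targeted gene, was lower in libraries labelled FosKO only at 0.5 h (12.64 to 12.81 against 13.43 to 13.57 in LysM-Cre). It was higher in them when unstimulated (12.41 to 12.72 against 11.07 to 11.17), after 1 h (12.67 to 12.86 against 11.02 to 11.34) and after 2 h (12.67 to 12.93 against 9.42 to 9.61). The table holds 1 value per gene and does not separate the floxed region from the rest, so Fos does not check the labels, and the groups keep their labelled names here. Lyz2, the locus that carries Cre, averaged 10.94 to 11.33 over the 4 LysM-Cre groups and 16.10 to 16.32 over the 4 groups labelled FosKO, and the parts of this difference and of the Fos deletion in any genotype difference below cannot be told apart. The 18S ribosomal RNA gene Rn18s-rs5 split the libraries into 5 low (16.65 to 17.00; 1 LysM-Cre and 1 labelled FosKO at 0.5 h, 2 and 1 at 1 h) and 19 high (18.57 to 19.39). Among markers, all 6 macrophage genes passed the filter, with mean values of 10.24 to 15.19. None of the T cell, B cell, mast cell or erythroid genes in the table did, and the highest mean was 4.77 for neutrophil, 4.58 for dendritic cell and 3.19 for fibroblast genes. The read depth of each library is unknown, since the table holds no counts.

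The 10 genes lie on 7 autosomes of the mouse genome build GRCm38, annotated by GENCODE vM21 as protein coding. Birc2 (chr9:7818227-7837064) and Birc3 (chr9:7848699-7873186) are neighbours on the same strand, 11634 bases apart. Mcl1 is at chr3:95658788-95663176, Bcl10 at chr3:145922804-145934356, Bcl2l1 at chr2:152780668-152831728, Bcl2l11 at chr2:128126038-128162547, Cflar at chr1:58711508-58758884, Gadd45a at chr6:67035096-67037457 and Gadd45b at chr10:80930073-80932204. RefSeq promoters on GRCm38.p6 were matched by symbol for 9 of the 10 genes, in 13 windows of 300 bases. Each window was searched on both strands for the AP-1 site TGANTCA (held by 7.81% of 32851 promoters of that length), the cyclic AMP response element TGACGTCA (1.79%), the NF-κB consensus (4.51%), the CArG box bound by serum response factor (1.63%) and the core of the interferon-stimulated response element, which is GAAA, any 2 bases and GAAA (3.44%). No window held the AP-1 letters or a CArG box. Upstream of the start, the matches were a cyclic AMP response element at −35 in promoter 2 of Birc2 and an NF-κB consensus at −241 in Bcl10 and at −242 in promoter 2 of Bcl2l1. A core of the interferon-stimulated response element in Cflar began at +7, past the start. A match describes the letters only, and binding was not measured.

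Shown 5′ to 3′ are the 250 bases upstream of the start, lower case with matches in capitals, for the 3 genes with an upstream match (Birc2, Bcl10 and Bcl2l1), for Gadd45b, whose expression changed most with LPS, and for Mcl1, whose difference between genotypes before LPS was the largest of the 10. The Birc2 stretch is chr9:7837058-7837307, minus strand, that of Bcl10 is chr3:145924012-145924261, plus strand, that of Bcl2l1 is chr2:152830718-152830967, minus strand, that of Gadd45b is chr10:80929841-80930090, plus strand, and that of Mcl1 is chr3:95658471-95658720, plus strand. Gadd45b and Mcl1 held no match.
Birc2: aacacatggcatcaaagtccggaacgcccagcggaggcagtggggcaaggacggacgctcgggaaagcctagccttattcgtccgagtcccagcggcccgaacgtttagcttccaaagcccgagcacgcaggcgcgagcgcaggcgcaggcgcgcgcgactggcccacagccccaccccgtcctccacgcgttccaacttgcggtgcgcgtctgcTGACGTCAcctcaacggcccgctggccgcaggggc
Bcl10: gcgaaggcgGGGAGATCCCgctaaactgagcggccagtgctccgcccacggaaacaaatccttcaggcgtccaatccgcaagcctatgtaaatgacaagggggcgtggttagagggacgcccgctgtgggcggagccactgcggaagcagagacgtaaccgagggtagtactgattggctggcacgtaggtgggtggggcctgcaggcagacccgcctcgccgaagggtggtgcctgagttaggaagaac
Bcl2l1: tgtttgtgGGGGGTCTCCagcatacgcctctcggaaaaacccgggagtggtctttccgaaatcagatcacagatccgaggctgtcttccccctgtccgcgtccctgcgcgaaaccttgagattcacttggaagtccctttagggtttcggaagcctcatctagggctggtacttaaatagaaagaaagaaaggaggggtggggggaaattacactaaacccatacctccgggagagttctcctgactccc
Gadd45b: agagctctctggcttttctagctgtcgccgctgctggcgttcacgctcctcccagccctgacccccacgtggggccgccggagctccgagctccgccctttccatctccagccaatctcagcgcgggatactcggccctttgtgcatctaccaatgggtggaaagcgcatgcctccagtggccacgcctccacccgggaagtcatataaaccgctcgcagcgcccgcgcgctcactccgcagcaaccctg
Mcl1: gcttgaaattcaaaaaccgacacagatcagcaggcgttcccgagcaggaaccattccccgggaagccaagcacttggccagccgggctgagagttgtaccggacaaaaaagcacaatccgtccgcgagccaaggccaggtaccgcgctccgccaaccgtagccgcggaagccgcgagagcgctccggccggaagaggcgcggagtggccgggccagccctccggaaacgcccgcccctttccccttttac

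The first comparison asked how LPS changed the regulators over time in each genotype. In LysM-Cre BMDMs 8 of the 10 were higher at 0.5 h, all 10 at 1 h, and 7 at 2 h, when 2 were lower. By then 6 genes, Gadd45b, Cflar, Bcl2l11, Birc3, Birc2 and Bcl2l1, were over 2-fold above 0 h. Pmaip1 and Gadd45a rose within 0.5 h and were below their 0 h level by 2 h, and Mcl1 rose and returned. A gene was called where limma's Benjamini-Hochberg adjusted p over 13901 tested genes was under 0.05. Of all tested genes, 5.09% were called higher after 0.5 h and 2.15% lower, 19.2% and 16.5% after 1 h, and 30.6% higher and 60.8% in either direction at 2 h. Under quantile normalisation the higher share of all calls went from 70.3% to 48.3%, from 53.8% to 37.6% and from 50.3% to 40.0% at these times in LysM-Cre, and in cells labelled FosKO from 75.2% to 50.5%, from 54.0% to 35.3% and from 52.5% to 39.2%. The regulators' share was furthest above the background at 0.5 and 1 h. As the members were chosen with earlier results of these data known, this describes the list and does not test it. In cells labelled FosKO 8 members were higher at 0.5 h, against 4.45% of genes higher and 1.47% lower. At 1 h 9 were higher, against 17.6% and 15%, and at 2 h 7 were higher and 2 lower, against 32.6% higher and 62.1% in either direction. Within the high 18S libraries every LPS call of a member at 0.5 h was kept, as was every 1 h call in cells labelled FosKO. For LysM-Cre at 1 h this set held a single library, so no call is given for it. When only the 2 groups compared entered the fit, the 0.5 h count in cells labelled FosKO went from 8 to 5. Over all tested genes the calls went from 619 higher and 204 lower to 301 in either direction.

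**Figure D1:**
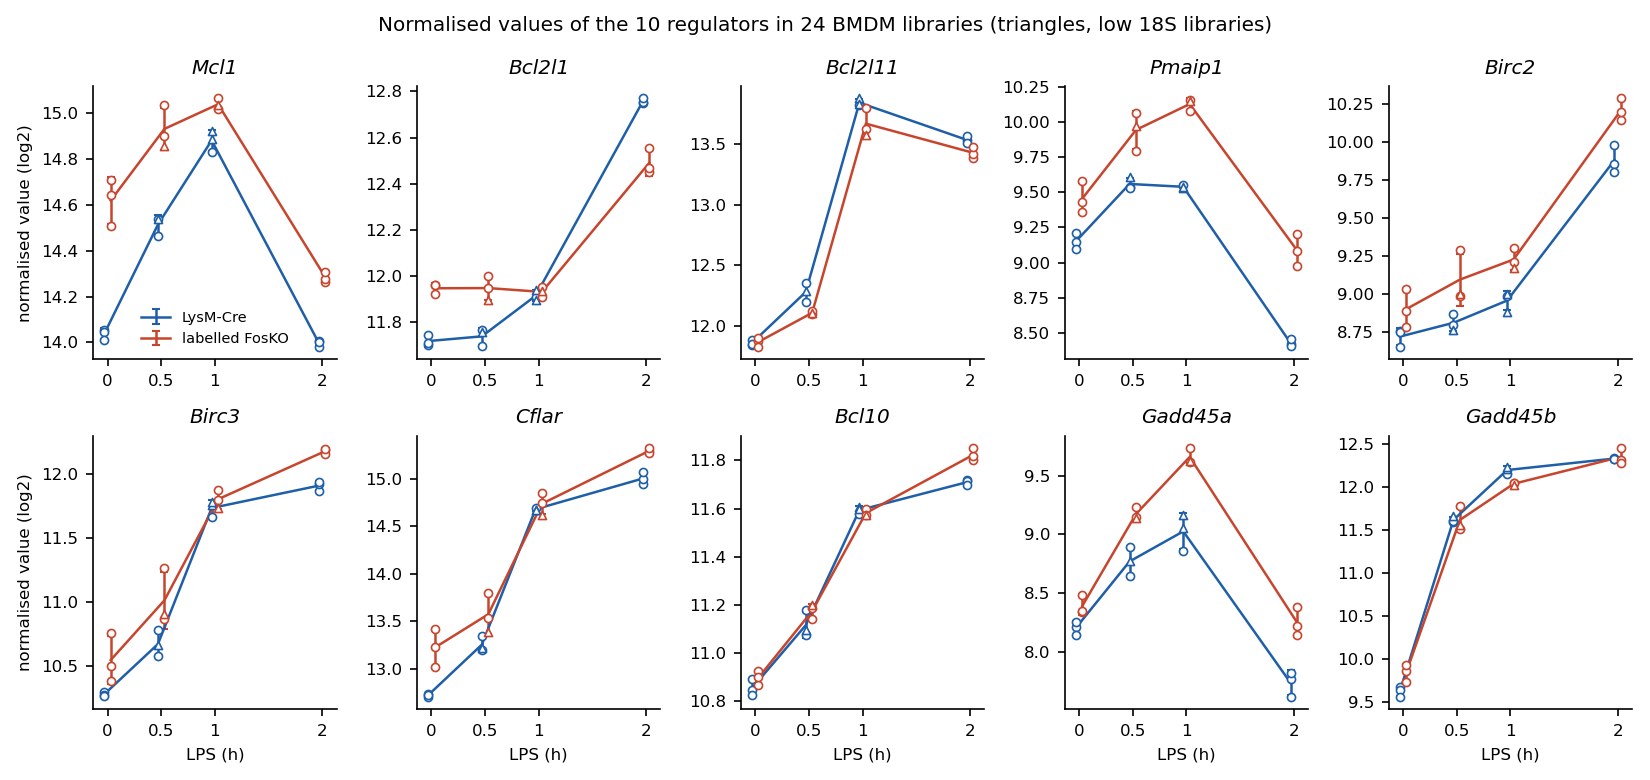
Normalised log2 values (y axis) of the 10 regulators against hours of LPS (x axis), 1 panel per gene. Circles and triangles are single libraries (triangles, the 5 low 18S libraries), lines join group means, bars are the SD of 3 libraries, LysM-Cre is blue and libraries labelled FosKO are red. Mcl1, Gadd45a and Pmaip1 climb and then drop by 2 h, whereas Birc3, Cflar, Bcl10 and Gadd45b are highest at 2 h.

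Among the BCL-2 guardians, Mcl1 encodes a short-lived protein that macrophages need to survive. In LysM-Cre libraries Mcl1 stood at 14.06, 14.05 and 14.01 unstimulated, 14.47, 14.54 and 14.54 after 0.5 h, 14.83, 14.89 and 14.92 after 1 h and 13.98, 14.01 and 14.00 after 2 h. Libraries labelled FosKO gave 14.51, 14.64 and 14.71 unstimulated, 14.86, 14.90 and 15.04 after 0.5 h, 15.04, 15.06 and 15.02 after 1 h and 14.26, 14.28 and 14.31 after 2 h. No library of either genotype at 1 h overlapped its own 0 h libraries, and by 2 h the LysM-Cre values lay beside those of 0 h. The LysM-Cre change was 0.48 ± 0.04 (adjusted p = 1.22e-07) at 0.5 h, with SE here and below, 0.84 ± 0.04 (adjusted p = 2.39e-12) at 1 h and -0.04 ± 0.04 (adjusted p = 0.44) at 2 h. In cells labelled FosKO it was 0.31 ± 0.04 (adjusted p = 6.14e-05), 0.42 ± 0.04 (adjusted p = 1.91e-07) and -0.34 ± 0.04 (adjusted p = 1.27e-06), so that Mcl1 ended below its starting level. The 0.5 h change was not called when only the 2 groups compared were fitted (0.31 (adjusted p = 0.115)), and quantile normalisation removed the change at 1 h (0.01 (adjusted p = 0.879)) and put the LysM-Cre change at 2 h at -0.48 (adjusted p = 8.7e-10).

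Bcl2l1 encodes BCL-xL, the other guardian of the list, and moved late. LysM-Cre libraries stood at 11.75, 11.70 and 11.71 unstimulated, 11.76, 11.69 and 11.76 after 0.5 h, 11.91, 11.89 and 11.94 after 1 h and 12.75, 12.75 and 12.77 after 2 h. The libraries labelled FosKO stood at 11.92, 11.96 and 11.96 unstimulated, 11.89, 11.95 and 12.00 after 0.5 h, 11.93, 11.91 and 11.95 after 1 h and 12.45, 12.47 and 12.55 after 2 h. All 6 libraries at 2 h were above all 18 earlier libraries. From 0 to 2 h the gene rose by 1.04 ± 0.03 (adjusted p = 2.18e-17) in LysM-Cre and by 0.54 ± 0.03 (adjusted p = 9.52e-13) in cells labelled FosKO, and most of that came between 1 and 2 h (0.84 ± 0.03 and 0.56 ± 0.03). The small rise at 1 h in LysM-Cre cells (0.20 ± 0.03 (adjusted p = 1.53e-05)) was lost under quantile normalisation (0.03 (adjusted p = 0.392)).

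Bcl2l11 encodes BIM, a BH3-only protein that binds all the guardians. It stood at 11.88, 11.84 and 11.85 unstimulated, 12.20, 12.35 and 12.29 after 0.5 h, 13.82, 13.88 and 13.83 after 1 h and 13.53, 13.56 and 13.51 after 2 h in LysM-Cre libraries. In libraries labelled FosKO its values were 11.87, 11.83 and 11.90 unstimulated, 12.10, 12.10 and 12.12 after 0.5 h, 13.58, 13.63 and 13.80 after 1 h and 13.38, 13.42 and 13.48 after 2 h. The step between 0.5 and 1 h exceeded the spread of any group. Bcl2l11 peaked at 1 h, 3.96-fold above 0 h in LysM-Cre (1.98 ± 0.04 (adjusted p = 1.05e-18)) and 3.49-fold in cells labelled FosKO (1.80 ± 0.04 (adjusted p = 5.45e-18)), and then dropped by 2 h (-0.31 ± 0.04 and -0.24 ± 0.04).

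Pmaip1 encodes NOXA, a BH3-only protein that binds MCL-1 preferentially, and it moved in parallel with Mcl1 rather than with Bcl2l11. Its values were 9.14, 9.10 and 9.21 unstimulated, 9.54, 9.53 and 9.61 after 0.5 h, 9.55, 9.53 and 9.54 after 1 h and 8.42, 8.41 and 8.46 after 2 h in LysM-Cre libraries. They were 9.43, 9.36 and 9.58 unstimulated, 9.97, 9.79 and 10.06 after 0.5 h, 10.15, 10.08 and 10.15 after 1 h and 9.08, 8.97 and 9.21 after 2 h in libraries labelled FosKO. In LysM-Cre cells the level was flat between 0.5 and 1 h and then fell to 0.463 of its 1 h value (-1.11 ± 0.06 (adjusted p = 5.4e-12)), ending below 0 h (-0.72 ± 0.06 (adjusted p = 2.47e-09)). In cells labelled FosKO the peak was at 1 h (0.67 ± 0.06 (adjusted p = 2.7e-08) over 0 h), and the 2 h level was also below 0 h (-0.37 ± 0.06 (adjusted p = 3.04e-05)). Across the 8 group means Pmaip1, Mcl1 and Gadd45a correlated with each other at r of 0.905 to 0.951, a description over groups that share genotypes and times.

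The cIAP genes differed in timing although they are neighbours. Birc2, which encodes cIAP1, stood at 8.75, 8.65 and 8.75 unstimulated, 8.80, 8.87 and 8.76 after 0.5 h, 8.99, 8.88 and 8.997 after 1 h and 9.85, 9.80 and 9.98 after 2 h in LysM-Cre libraries. It stood at 8.78, 8.88 and 9.03 unstimulated, 9.001, 8.99 and 9.29 after 0.5 h, 9.17, 9.21 and 9.30 after 1 h and 10.14, 10.19 and 10.28 after 2 h in those labelled FosKO. As with Bcl2l1, most of the rise came after 1 h, and the 2 h libraries did not overlap earlier ones. The change by 2 h was 1.16 ± 0.07 (adjusted p = 1.57e-11) and 1.31 ± 0.07 (adjusted p = 2.08e-12). At 1 h the LysM-Cre change was 0.24 ± 0.07 (adjusted p = 0.0152), a call lost without LysM-Cre replicate 2 at 0 h (0.20 (adjusted p = 0.0693)) and without LysM-Cre replicate 3 at 1 h (0.22 (adjusted p = 0.0576)). Within the high 18S libraries, which held a single LysM-Cre library at 1 h, the change was 0.27.

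Birc3, which encodes cIAP2, rose earlier than its neighbour. LysM-Cre libraries gave 10.30, 10.28 and 10.26 unstimulated, 10.57, 10.78 and 10.66 after 0.5 h, 11.67, 11.76 and 11.78 after 1 h and 11.87, 11.93 and 11.94 after 2 h. Libraries labelled FosKO gave 10.38, 10.50 and 10.76 unstimulated, 10.91, 10.87 and 11.27 after 0.5 h, 11.73, 11.80 and 11.88 after 1 h and 12.19, 12.16 and 12.20 after 2 h. At 1 h every library was above every 0.5 h library. The gene had gained 1.46 ± 0.09 (adjusted p = 1.62e-11) by 1 h and 1.63 ± 0.09 (adjusted p = 8.55e-13) by 2 h in LysM-Cre, and 1.26 ± 0.09 (adjusted p = 1.99e-10) and 1.64 ± 0.09 (adjusted p = 7.52e-13) in cells labelled FosKO. Its rise at 0.5 h in cells labelled FosKO (0.47 ± 0.09 (adjusted p = 0.00124)) was not called with only the 2 groups compared (0.47 (adjusted p = 0.2)).

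Cflar, the inhibitor of caspase-8, followed Birc3 closely. It stood at 12.74, 12.71 and 12.73 unstimulated, 13.20, 13.35 and 13.22 after 0.5 h, 14.70, 14.67 and 14.67 after 1 h and 14.94, 14.99 and 15.07 after 2 h in LysM-Cre libraries. Values of 13.02, 13.24 and 13.42 unstimulated, 13.39, 13.54 and 13.80 after 0.5 h, 14.62, 14.74 and 14.84 after 1 h and 15.29, 15.27 and 15.32 after 2 h were found in libraries labelled FosKO. The gain by 2 h was 4.84-fold in LysM-Cre (2.28 ± 0.09 (adjusted p = 3.26e-15)) and 4.19-fold in cells labelled FosKO (2.07 ± 0.09 (adjusted p = 1.52e-14)), most of it between 0.5 and 1 h. The early rise at 0.5 h in cells labelled FosKO (0.35 ± 0.09 (adjusted p = 0.0156)) was lost without replicate 1 at 0 h (0.25 (adjusted p = 0.114)), without replicate 3 at 0.5 h (0.24 (adjusted p = 0.128)) and with only the 2 groups compared (0.35 (adjusted p = 0.336)).

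Bcl10, the adaptor of MALT1, kept rising to 2 h but gained less than Birc3, Cflar or Gadd45b in both genotypes. LysM-Cre values ran from 10.82 to 10.89 unstimulated, 11.07 to 11.18 after 0.5 h, 11.58 to 11.61 after 1 h and 11.70 to 11.72 after 2 h, with no overlap between times. In libraries labelled FosKO they ran from 10.87 to 10.93, 11.14 to 11.20, 11.57 to 11.60 and 11.80 to 11.85. The rise by 2 h was 0.86 ± 0.03 (adjusted p = 9.58e-17) and 0.92 ± 0.03 (adjusted p = 2.85e-17). Across the 8 group means Bcl10, Birc3 and Cflar correlated at r of 0.988 to 0.997.

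Of the GADD45 genes, Gadd45a fell after 1 h in both genotypes. Gadd45a, which is a p53 target in many cells, stood at 8.22, 8.26 and 8.14 unstimulated, 8.89, 8.65 and 8.77 after 0.5 h, 8.86, 9.06 and 9.16 after 1 h and 7.77, 7.62 and 7.83 after 2 h in LysM-Cre libraries. Those labelled FosKO stood at 8.34, 8.35 and 8.49 unstimulated, 9.14, 9.15 and 9.24 after 0.5 h, 9.63, 9.73 and 9.62 after 1 h and 8.15, 8.23 and 8.38 after 2 h. The rise and fall exceeded the spread in both genotypes. Between 1 and 2 h it fell to 0.41 of its 1 h level in LysM-Cre (-1.29 ± 0.08 (adjusted p = 1.72e-11)) and to 0.377 in cells labelled FosKO (-1.41 ± 0.08 (adjusted p = 3.97e-12)). Against 0 h the level at 2 h was lower in LysM-Cre (-0.47 ± 0.08 (adjusted p = 2.54e-05)), while in cells labelled FosKO the difference was -0.14 ± 0.08 (adjusted p = 0.124), or -0.21 (adjusted p = 0.0381) without replicate 3 at 2 h.

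Gadd45b, which restrains JNK signalling downstream of NF-κB, had the largest response of the 10 at every time in both genotypes. Its LysM-Cre values were 9.67, 9.64 and 9.56 unstimulated, 11.59, 11.60 and 11.66 after 0.5 h, 12.15, 12.21 and 12.23 after 1 h and 12.32, 12.34 and 12.33 after 2 h. Its values in libraries labelled FosKO were 9.74, 9.86 and 9.93 unstimulated, 11.56, 11.51 and 11.78 after 0.5 h, 12.02, 12.04 and 12.04 after 1 h and 12.32, 12.28 and 12.45 after 2 h. Most of the response was in place by 0.5 h, when the groups were already far from 0 h. It was 3.98-fold above 0 h at 0.5 h in LysM-Cre (1.99 ± 0.06 (adjusted p = 1.74e-16)) and 3.41-fold in cells labelled FosKO (1.77 ± 0.06 (adjusted p = 1.67e-15)). By 2 h it was 6.52-fold and 5.67-fold above 0 h (2.70 ± 0.06 and 2.50 ± 0.06).

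**Figure D2:**
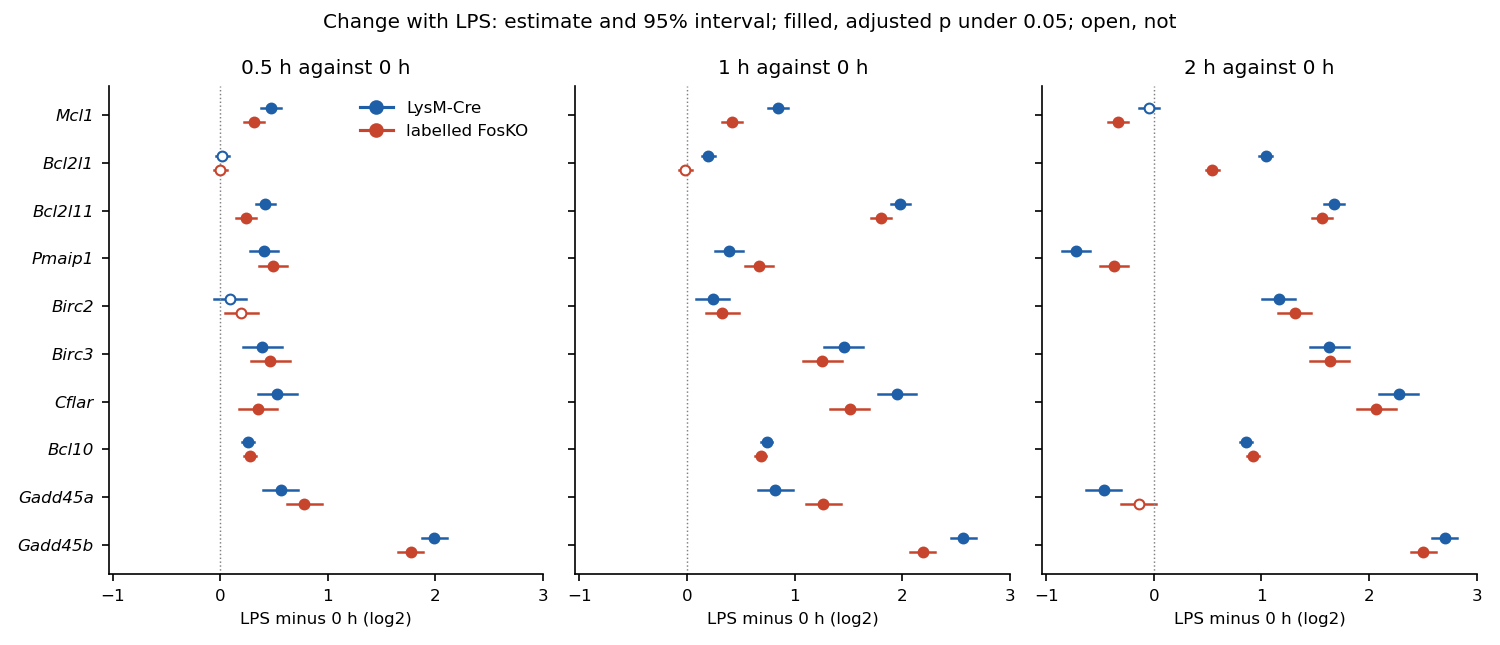
Change with LPS against 0 h (x axis, log2) of the 10 regulators (y axis) at 0.5, 1 and 2 h. Points are limma estimates and bars are 95% intervals, LysM-Cre in blue and cells labelled FosKO in red, filled where the adjusted p was under 0.05. Gadd45b lies furthest right in every panel, and at 2 h Pmaip1 lies left of 0 in both genotypes.

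The step from 1 to 2 h shows which genes were still moving. In LysM-Cre cells 4 members were higher at 2 h than at 1 h (Bcl2l1, Birc2, Cflar and Bcl10) and 4 lower (Gadd45a, Pmaip1, Mcl1 and Bcl2l11), against 27.5% and 24.8% of all tested genes. Birc3 (0.18 ± 0.09 (adjusted p = 0.0959)) and Gadd45b (0.13 ± 0.06 (adjusted p = 0.0536)) were not called, but with only the 2 groups compared in the fit both were (adjusted p = 0.0024 and 0.00231). In cells labelled FosKO 6 were higher and 4 lower, against 27.2% and 23.6% (under quantile normalisation the higher share of all calls went from 52.6% to 44.4% in LysM-Cre and from 53.6% to 42.1% here). Here Birc3 (0.38 ± 0.09 (adjusted p = 0.000954)) and Gadd45b (0.31 ± 0.06 (adjusted p = 8.09e-05)) passed, and whether this step differed between genotypes was not tested. Quantile normalisation lost the LysM-Cre calls of Bcl10 (0.00 (adjusted p = 0.96)) and Cflar (0.15 (adjusted p = 0.0847)) and, in cells labelled FosKO, that of Gadd45b (0.11 (adjusted p = 0.063)).

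The second comparison asked how the genotypes differed at each time. Of the 10 regulators 6, 7, 4 and 7 were called higher in libraries labelled FosKO at 0, 0.5, 1 and 2 h, none by over 1.58-fold. Mcl1 and Pmaip1 were higher at all 4 times, Gadd45a and Birc2 at all 3 times after LPS, and Cflar and Birc3 at 0, 0.5 and 2 h. Bcl2l11 was lower at 0.5 and 1 h, Gadd45b was higher at 0 h and lower at 1 h, and Bcl2l1 changed from higher at 0 and 0.5 h to lower at 2 h. In bulk RNA, fewer cells expressing a gene and less RNA per cell cannot be told apart. The counts of members called lower at these times were 0, 1, 2 and 1. Of all tested genes 19.5% were called higher in unstimulated cells and 15.9% lower. After LPS these shares were 21.2% and 19.7% (0.5 h), 18% and 15.9% (1 h), and 24.4% and 20.3% (2 h). Differences between genotypes were therefore common across the whole table. Quantile normalisation put the higher share of all calls below the lower share at every time, with 45.3% in place of 55.1% at 0 h, 45.6% in place of 51.9% at 0.5 h, 42.8% in place of 53.1% at 1 h and 43.0% in place of 54.6% at 2 h. At 2 h it left 4 of the 8 member calls and added that of Bcl2l11, with 6024 of all tested genes called, against 3386 higher and 2816 lower. Among the 3 libraries of each group labelled FosKO, replicate 3 held the highest value for 8, 9, 6 and 10 members in time order. With all 4 of these libraries left out, a check added after seeing the data, 6, 8, 6 and 9 members were called at 0, 0.5, 1 and 2 h. The shares of all tested genes given above are those of the fit with all libraries, not of this check. The counts of this check are therefore not compared with a background.

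**Figure D3:**
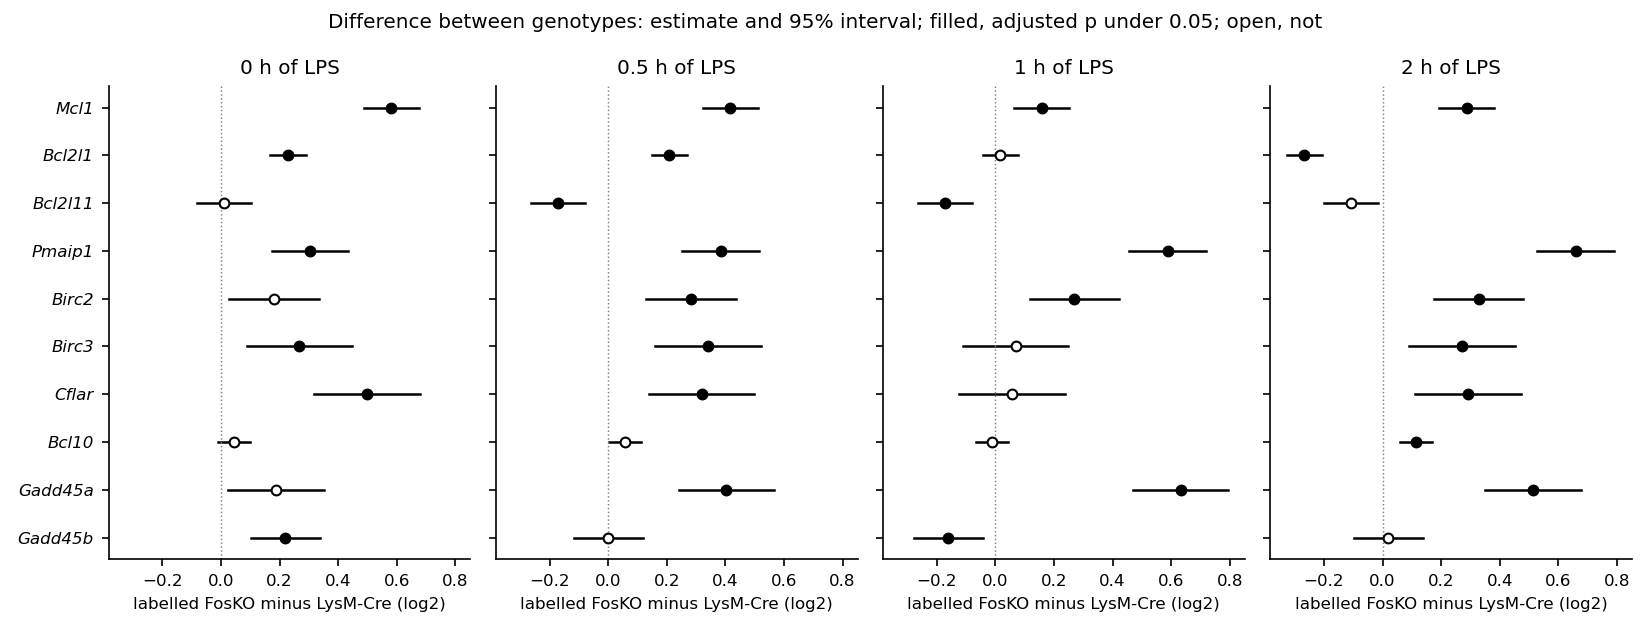
Difference between genotypes (x axis, libraries labelled FosKO minus LysM-Cre, log2) of the 10 regulators (y axis) at 0, 0.5, 1 and 2 h. Points are limma estimates with 95% intervals, filled where the adjusted p was under 0.05. Mcl1 moves toward 0 between 0 and 1 h while Pmaip1 and Gadd45a move away from it, and Bcl2l1 crosses to the left at 2 h.

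Mcl1 differed most before LPS. Its unstimulated libraries labelled FosKO (14.51 to 14.71) lay above all LysM-Cre libraries at 0 h (14.01 to 14.06), a difference of 0.58 ± 0.04 (adjusted p = 4.96e-09). The groups stayed apart at 0.5 h (0.42 ± 0.04 (adjusted p = 2.53e-07); 0.47 within the high and 0.32 within the low 18S libraries), at 1 h (0.16 ± 0.04 (adjusted p = 0.00902); 0.21 and 0.13) and at 2 h (0.29 ± 0.04 (adjusted p = 2.23e-05)). The 1 h and 2 h values depended on the scaling, since quantile normalisation gave -0.02 (adjusted p = 0.766) and 0.05 (adjusted p = 0.309).

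For Pmaip1 the difference was larger at each later time. It was 0.30 ± 0.06 (adjusted p = 0.000656) at 0 h, 0.38 ± 0.06 (adjusted p = 4.63e-05) at 0.5 h, 0.59 ± 0.06 (adjusted p = 3.58e-07) at 1 h and 0.66 ± 0.06 (adjusted p = 4.28e-08) at 2 h, where the fold was 1.58. No library labelled FosKO overlapped a LysM-Cre library at any time. After 0.5 h it was 0.39 within the high and 0.37 within the low 18S libraries, and after 1 h 0.57 and 0.61.

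Gadd45a was also higher after LPS, with its largest difference at 1 h. The difference was 0.19 ± 0.08 (adjusted p = 0.069) at 0 h, 0.40 ± 0.08 (adjusted p = 0.000287) at 0.5 h, 0.63 ± 0.08 (adjusted p = 2.25e-06) at 1 h and 0.51 ± 0.08 (adjusted p = 1.75e-05) at 2 h. Every library labelled FosKO was above every LysM-Cre library at each time, also at 0 h, where the adjusted p missed the threshold. After 0.5 h it was 0.42 within the high and 0.37 within the low 18S libraries, and after 1 h 0.82 and 0.52, where the high set held a single LysM-Cre library. Its relative Gadd45b differed little between genotypes, with 0.22 ± 0.06 (adjusted p = 0.00438) at 0 h, -0.00 ± 0.06 (adjusted p = 0.999) at 0.5 h, -0.16 ± 0.06 (adjusted p = 0.033) at 1 h and 0.02 ± 0.06 (adjusted p = 0.815) at 2 h. The 1 h call did not survive leaving out LysM-Cre replicate 2 (adjusted p = 0.0837) or 3 (0.107) or any of the 3 libraries labelled FosKO (0.0655 to 0.0716), or dropping the filter on low values (0.0573). Within the high 18S libraries, with a single LysM-Cre library, the 1 h difference was -0.11 and, in the low set, -0.20.

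Birc2, Birc3 and Cflar, which all act beside TNF receptor 1, were all higher in libraries labelled FosKO at 0.5 and 2 h. The difference of Cflar was 0.50 ± 0.09 (adjusted p = 0.000119) at 0 h, 0.32 ± 0.09 (adjusted p = 0.00546) at 0.5 h, 0.06 ± 0.09 (adjusted p = 0.655) at 1 h and 0.29 ± 0.09 (adjusted p = 0.00929) at 2 h. Its libraries labelled FosKO ranged from 13.02 to 13.42 at 0 h, a wider spread than the 12.71 to 12.74 of LysM-Cre, and the 0.5 h call was lost without replicate 3 labelled FosKO (0.21 (adjusted p = 0.0542)). The difference of Birc3 was 0.27 ± 0.09 (adjusted p = 0.0197), 0.34 ± 0.09 (adjusted p = 0.00314), 0.07 ± 0.09 (adjusted p = 0.583) and 0.27 ± 0.09 (adjusted p = 0.0146) at the 4 times. Its 0 h call was lost without LysM-Cre replicate 3 (0.26 (adjusted p = 0.0543)) or replicate 3 labelled FosKO (0.16 (adjusted p = 0.158)), and its 2 h call without LysM-Cre replicate 1 (0.25 (adjusted p = 0.0522)). At 2 h quantile normalisation gave 0.08 (adjusted p = 0.394) for Cflar and 0.14 (adjusted p = 0.165) for Birc3. Birc2 differed by 0.18 ± 0.07 (adjusted p = 0.0615), 0.28 ± 0.07 (adjusted p = 0.00375), 0.27 ± 0.07 (adjusted p = 0.00683) and 0.33 ± 0.07 (adjusted p = 0.00101), and at 1 h, within the high 18S libraries with a single LysM-Cre library, by 0.27. Its 0 h difference was called under quantile normalisation (0.20 (adjusted p = 0.0403)) and with the 18S set as a term (adjusted p = 0.0478). Within the high and low 18S libraries at 0.5 h the differences were 0.39 and 0.17 for Cflar, 0.39 and 0.25 for Birc3, and 0.31 and 0.24 for Birc2, and at 1 h 0.23 for Birc2 in the low set.

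Bcl2l1 and Bcl2l11 were, beside Gadd45b at 1 h, the members called lower at some time in libraries labelled FosKO. Bcl2l1 was higher by 0.23 ± 0.03 (adjusted p = 3.53e-06) at 0 h and 0.21 ± 0.03 (adjusted p = 7.13e-06) at 0.5 h, stood at 0.02 ± 0.03 (adjusted p = 0.696) at 1 h, and was -0.27 ± 0.03 (adjusted p = 2.89e-07) at 2 h, with no overlap at 0, 0.5 or 2 h. Within the high and low 18S libraries the 0.5 h difference was 0.24 and 0.14. Bcl2l11 showed 0.01 ± 0.04 (adjusted p = 0.903) at 0 h, -0.17 ± 0.04 (adjusted p = 0.00366) at 0.5 h, -0.17 ± 0.04 (adjusted p = 0.00435) at 1 h and -0.11 ± 0.04 (adjusted p = 0.0555) at 2 h. Within the high 18S libraries the differences were -0.17 after 0.5 h and, with a single LysM-Cre library, -0.10 after 1 h, and within the low ones -0.18 and -0.28. The 1 h call was lost with only the 2 groups compared (-0.17 (adjusted p = 0.0579)), and the 2 h difference was called under quantile normalisation (-0.24 (adjusted p = 1.77e-05)) and with only the 2 groups compared (adjusted p = 0.0178). Bcl10 differed by 0.04 ± 0.03 (adjusted p = 0.211), 0.06 ± 0.03 (adjusted p = 0.0812), -0.01 ± 0.03 (adjusted p = 0.763) and 0.11 ± 0.03 (adjusted p = 0.00133) at the 4 times, and quantile normalisation gave -0.09 (adjusted p = 0.0121) at 1 h and -0.02 (adjusted p = 0.567) at 2 h.

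The third comparison tested whether the LPS response itself differed between genotypes, as the change in cells labelled FosKO minus that in LysM-Cre cells. This difference was below 0 for the guardians Mcl1 and Bcl2l1 at 1 and 2 h and for Gadd45b at 1 h, and above 0 for Pmaip1 at 2 h. Mcl1 rose less in cells labelled FosKO at 1 h, whereas at 2 h it had fallen below its 0 h level in those cells and its change in LysM-Cre cells was not called. At 0.5 h limma called 0 members, with 3 (Mcl1, Bcl2l11 and Gadd45b, all lower) at an unadjusted p under 0.05, against 0.0144% of all tested genes called higher and 0.101% lower. At 1 h 0 were called higher and 3 lower, against 0.489% and 0.727%. After 2 h 1 was higher and 2 lower, against 7.27% and 7.7%. The 3 calls at 1 h stood above the share of all genes. The members were chosen with earlier results of these data known, so this is a description and not a test of the list. The 0 h libraries enter each of these contrasts, so a difference between genotypes before LPS is part of each value.

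**Figure D4:**
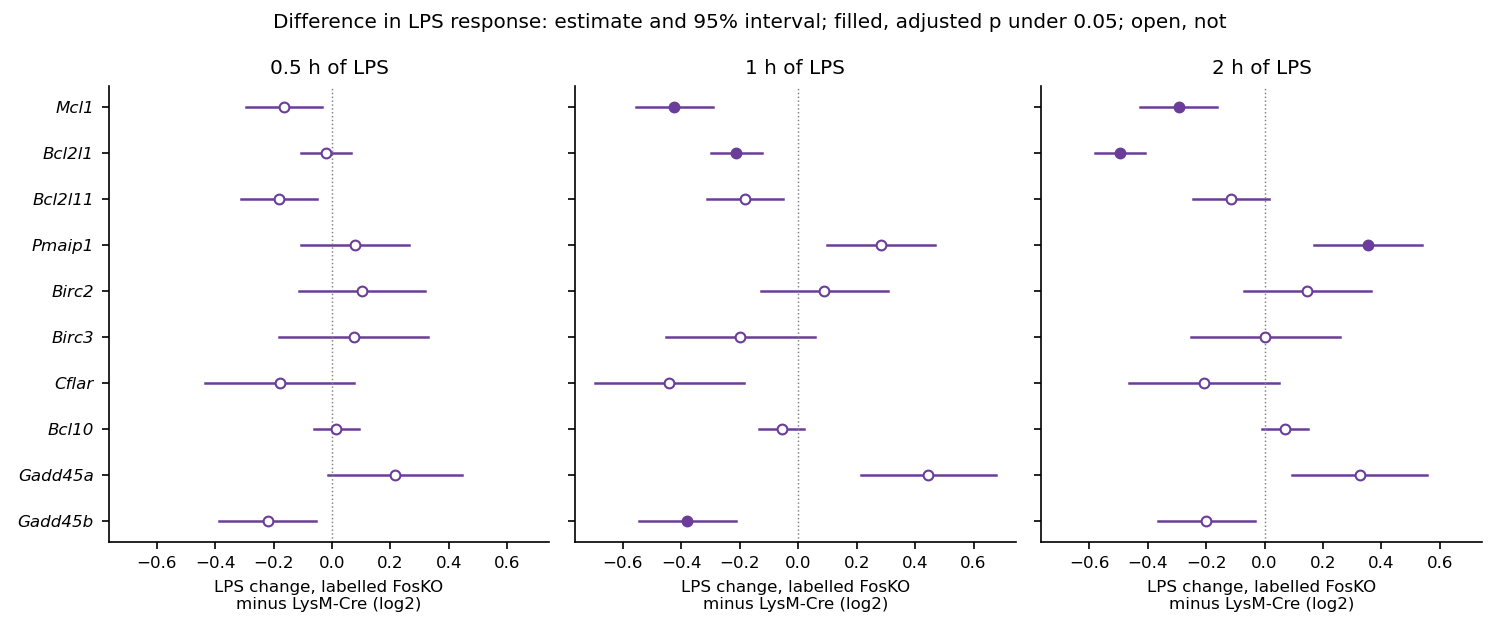
Difference in LPS response (x axis, change in cells labelled FosKO minus change in LysM-Cre cells, log2) of the 10 regulators (y axis) at 0.5, 1 and 2 h. Points are limma estimates with 95% intervals, filled where the adjusted p was under 0.05. Mcl1 and Bcl2l1 lie left of 0 at 1 and 2 h, and Pmaip1 lies right of 0 at 2 h.

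For Mcl1 the LPS change at 1 h was 0.84 in LysM-Cre and 0.42 in cells labelled FosKO, a difference of -0.42 ± 0.06 (adjusted p = 0.000476), and at 2 h the difference was -0.29 ± 0.06 (adjusted p = 0.00278). Within the high 18S libraries, which held a single LysM-Cre library at 1 h, the 1 h difference for Mcl1 was -0.37. For Bcl2l1 the difference was -0.21 ± 0.04 (adjusted p = 0.0081) at 1 h and -0.50 ± 0.04 (adjusted p = 5.86e-08) at 2 h, when the rise was 2.06-fold in LysM-Cre and 1.46-fold in cells labelled FosKO. The 1 h value for Bcl2l1 was -0.21 within the same high 18S libraries. For Gadd45b the difference at 1 h was -0.38 ± 0.08 (adjusted p = 0.0152), and the call was lost without unstimulated replicate 3 of LysM-Cre (adjusted p = 0.0561) or of cells labelled FosKO (0.0554), or without the 1 h replicate 3 of LysM-Cre (0.0511). In the high 18S libraries the 1 h difference for Gadd45b was -0.33. Pmaip1 fell by 0.72 in LysM-Cre and by 0.37 in cells labelled FosKO at 2 h, a difference of 0.36 ± 0.09 (adjusted p = 0.00883).

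Gadd45a and Cflar differed in opposite directions, and whether they were called depended on the setting or the libraries left out. Gadd45a gave 0.45 ± 0.11 (adjusted p = 0.0533) at 1 h and 0.33 ± 0.11 (adjusted p = 0.0517) at 2 h. Cflar gave -0.44 ± 0.12 (adjusted p = 0.11) at 1 h and -0.21 ± 0.12 (adjusted p = 0.295) at 2 h. At 1 h both were called with the 18S set as a term (adjusted p = 0.0482 and 0.0282), and quantile normalisation called Cflar at 1 h (-0.46 (adjusted p = 0.0173)) and 2 h (-0.33 (adjusted p = 0.0316)). Pmaip1 at 1 h gave 0.28 ± 0.09 (adjusted p = 0.196) and Gadd45b at 2 h gave -0.20 ± 0.08 (adjusted p = 0.105), the latter called under quantile normalisation (-0.30 (adjusted p = 0.00387)). At 2 h the 95% interval of the difference was -0.25 to 0.26 for Birc3, -0.07 to 0.36 for Birc2, -0.01 to 0.15 for Bcl10 and -0.25 to 0.01 for Bcl2l11, none of which was called, although quantile normalisation gave -0.19 (adjusted p = 0.0151) for Bcl2l11.

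Other genes of the same pathways were read from 8 lists of 48 genes, chosen with earlier results of these data known. Of these 47 were in the table and 46 were tested. By 2 h of LPS in LysM-Cre cells 17 were higher and 19 lower, against 30.6% of all tested genes higher and 60.8% in either direction. In cells labelled FosKO 22 were higher and 13 lower, against 32.6% and 62.1%. The median change of the 46 was -0.01 and 0.11, beside -0.02 and 0.00 for all tested genes and 1.10 and 1.12 for the 10 members. At 0.5 h 5 of 46 were higher and 2 lower in LysM-Cre (all tested genes, 5.09% and 2.15%), and in cells labelled FosKO 6 and 0 (4.45% and 1.47%), beside 8 of 10 members higher in each. Between genotypes 23 were higher and 6 lower in unstimulated cells, against 19.5% and 15.9% of all tested genes. After 0.5 h 23 were higher and 9 lower (21.2% and 19.7%), after 1 h 20 and 4 (18% and 15.9%) and after 2 h 25 and 5 (24.4% and 20.3%).

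The guardian list held the largest changes. Bcl2a1b rose by 3.13 ± 0.06 (adjusted p = 3.33e-20) and Bcl2a1d by 3.74 ± 0.12 (adjusted p = 1.67e-16) at 2 h in LysM-Cre. Both were higher in libraries labelled FosKO before LPS (0.98 ± 0.06 and 1.06 ± 0.12) and, by less, at 2 h (0.70 ± 0.06 and 0.59 ± 0.12). The difference in response of Bcl2a1b at 2 h was -0.28 ± 0.08 (adjusted p = 0.0224). The A1 genes are near-identical copies, so how their reads were shared is uncertain. Both tested effectors, Bak1 (0.24 ± 0.03 (adjusted p = 2.38e-06)) and Bax (0.18 ± 0.04 (adjusted p = 0.000721)), were slightly higher in libraries labelled FosKO at 2 h and at the other 3 times. Among the 7 tested BH3-only genes 0 were called higher by 2 h and 5 lower in LysM-Cre, against 30.6% of all tested genes higher and 60.8% in either direction, with Bmf at -2.28 ± 0.11 (adjusted p = 1.73e-13) and Bid at -0.45 ± 0.03 (adjusted p = 3.5e-10). Of the BH3-only members, Pmaip1 was also lower by then (-0.72 ± 0.06), whereas Bcl2l11 was higher (1.68 ± 0.04). Between genotypes this list was mixed. Bmf (-0.70 ± 0.11 (adjusted p = 2.26e-05)) and Bnip3 (-0.31 ± 0.05 (adjusted p = 7.25e-05)) were lower in libraries labelled FosKO at 2 h. Their means were also lower there at 0 h (7.20 against 7.66 in LysM-Cre for Bmf, 9.08 against 9.38 for Bnip3). Bbc3, which encodes the p53 target PUMA, was higher, most at 1 h (0.73 ± 0.06 (adjusted p = 4.51e-09)), as was Bid at 0.5 h (0.44 ± 0.03 (adjusted p = 4.3e-09)).

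In the death receptor list Fas rose by 2.34 ± 0.12 (adjusted p = 6.7e-13) and the adaptor Traf2, which brings the cIAPs to TNF receptor 1, by 1.07 ± 0.06 (adjusted p = 1.23e-12) at 2 h in LysM-Cre. In cells labelled FosKO Fas rose less, by 1.62 ± 0.12 (adjusted p = 2.55e-10), and Traf2 by 0.79 ± 0.06 (adjusted p = 1.55e-10), both from a higher starting mean. From 0 to 2 h the mean of Fas went from 6.62 to 8.96 in LysM-Cre and from 7.22 to 8.84 in cells labelled FosKO. That of Traf2 went from 8.55 to 9.62 and from 8.91 to 9.71. Casp8, the target of cFLIP, was higher in libraries labelled FosKO at 2 h (0.49 ± 0.04 (adjusted p = 2.52e-09)), as was Mlkl, the effector of necroptosis (0.98 ± 0.09 (adjusted p = 5.12e-08)). Before LPS both were already higher in them, Casp8 by 0.24 ± 0.04 (adjusted p = 3.99e-05) and Mlkl by 0.79 ± 0.09 (adjusted p = 1.64e-06). Of the 10 genes of this list 4 were called higher at 2 h and 1 lower (the lowest difference was -0.24), and 5 were not called. The shares of all tested genes were 24.4% higher and 20.3% lower. Among the IAP genes beyond the members, Xiap changed from 0 to 2 h of LPS in LysM-Cre cells by 0.22 ± 0.04 (adjusted p = 3.79e-05) and Birc5, a mitotic IAP, by -0.49 ± 0.12 (adjusted p = 0.00101). Birc5 was lower in libraries labelled FosKO, with -0.60 ± 0.12 (adjusted p = 0.00036) at 0 h, -0.64 ± 0.12 (adjusted p = 0.000126) at 0.5 h and -0.69 ± 0.12 (adjusted p = 7.76e-05) at 1 h. Naip2 was higher in them, with 0.27 ± 0.05 (adjusted p = 0.000177) at 0 h, 0.35 ± 0.05 (adjusted p = 5.86e-06) at 0.5 h, 0.26 ± 0.05 (adjusted p = 0.000246) at 1 h and 0.39 ± 0.05 (adjusted p = 1.47e-06) at 2 h. Naip5 was higher at 2 h (0.26 ± 0.05 (adjusted p = 0.000427)). At 2 h 2 of the 7 genes of this list were called higher and 1 lower, against 24.4% and 20.3% of all tested genes. Apaf1, the scaffold of the apoptosome, was higher in libraries labelled FosKO at 2 h (0.85 ± 0.04 (adjusted p = 3e-12)), and its LPS response differed by 0.59 ± 0.06 (adjusted p = 5.43e-07). Casp9, which Apaf1 activates, fell by 1.08 in LysM-Cre (adjusted p = 7.74e-14).

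Malt1, the partner of BCL10, rose by 2.57 ± 0.05 (adjusted p = 1.17e-19) in LysM-Cre and 2.68 ± 0.05 (adjusted p = 6.76e-20) in cells labelled FosKO. In the last list Cdkn1a, the p53 target that arrests the cell cycle, rose by 2.40 ± 0.06 (adjusted p = 1.46e-18) in LysM-Cre. Mdm2, another p53 target, fell between 1 and 2 h (-1.31 ± 0.05 (adjusted p = 1.23e-14) in LysM-Cre and -1.18 ± 0.05 (adjusted p = 6.36e-14) in cells labelled FosKO), as Gadd45a did. Map3k4, the kinase that GADD45 proteins activate, changed by -0.96 ± 0.05 (adjusted p = 1.02e-12) and -0.68 ± 0.05 (adjusted p = 2.45e-10) by 2 h. Map2k7, a kinase upstream of JNK, was lower in libraries labelled FosKO at 2 h (-0.15 ± 0.03 (adjusted p = 0.000793)).

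**Figure D5:**
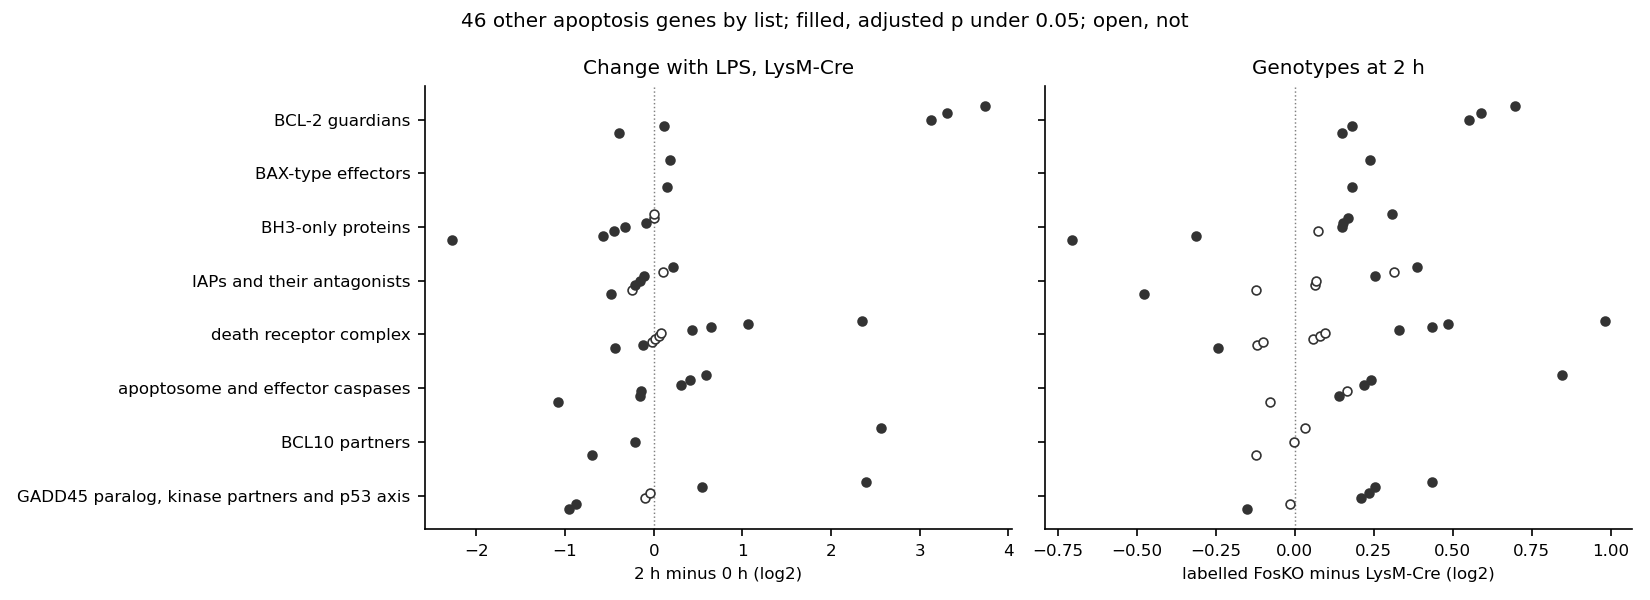
The 46 tested genes of the 8 pathway lists (y axis), by their change from 0 to 2 h of LPS in LysM-Cre cells and their difference between genotypes at 2 h (x axes, log2). Each point is 1 gene, filled where the adjusted p was under 0.05. The points near or beyond 3 in the first panel are the A1 genes of the guardian list, and the lowest is Bmf.

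The closest patterns in the table were found by Pearson's r of the 8 group means, a description in which the points share genotypes and times. The gene most like Birc3 was Cflar (r = 0.997), and Traf1 came next for both (0.995 and 0.996). Gadd45b was most like Socs3 (0.994), Bcl2l11 most like Zc3h12c (0.996), Bcl2l1 most like Il4ra (0.995) and Birc2 most like Ppp1r15b (0.998). Gadd45a was most like Tgif1 (0.984), Pmaip1 most like Clec2i (0.953) and Mcl1 most like Id2 (0.938). Bcl10 was not matched, because its group means spanned 0.969, under the span of 1 that was asked.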

How the data were processed

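The authors deposited 1 table of log2 normalised expression for 24 BMDM libraries and 24273 genes, with values from -2.219 to 19.39. Reads were aligned with STAR (2.5.2a) and quantified with RSEM (1.2.31). The submitters' processing notes name GRCm38 and DESeq2 (1.16.1), whereas the study's methods give another DESeq2 version. The values are normalised by a log2 transformation that is not given in the sources used here. Counts were not used here, so the depth of each library is unknown. Genes with a linear value of at least 5 in at least 3 libraries (13901) were tested with limma 3.58.1 (R 4.3.3) in 1 fit of 8 group means with a variance trend and 16 residual degrees of freedom, on the deposited log2 values without a pseudocount. The 15 contrasts were 4 between genotypes, 6 of LPS against 0 h, 2 of 2 h against 1 h, and 3 differences in response. P-values were Benjamini-Hochberg adjusted over all 13901 genes within each contrast and were two-sided. With 3 libraries against 3, an exact permutation test cannot go below p = 0.1. The fit was tested on simulated data. Members and pathway lists were chosen with earlier results of these data known. All 10 members are named, and from each pathway list at most 2 genes per comparison, those with the largest absolute limma statistic among called genes. A gene of these lists that the rule named is not reported here. Map2k7 and Itgam stood on 2 rows. For Map2k7 the row with the higher mean was used, and for the marker Itgam the row listed first. Promoters were RefSeq sequences on GRCm38.p6, and Pmaip1 was not matched. Alternatives covered the filter, a pseudocount of 1, quantile normalisation, median centring, the groups fitted, replicate blocks, the 18S sets, the variance trend and leaving out libraries.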

Additional observations from a re-analysis of the deposited data

Results flagged for a closer look

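A set of 6 member values was singled out because the LPS response differed between genotypes by the interaction contrast of limma (Benjamini-Hochberg adjusted). At 1 h the response in cells labelled FosKO minus that in LysM-Cre cells was -0.42 ± 0.06 (adjusted p = 0.000476) for Mcl1, -0.21 ± 0.04 (adjusted p = 0.0081) for Bcl2l1 and -0.38 ± 0.08 (adjusted p = 0.0152) for Gadd45b. At 2 h it was -0.29 ± 0.06 (adjusted p = 0.00278) for Mcl1, -0.50 ± 0.04 (adjusted p = 5.86e-08) for Bcl2l1 and 0.36 ± 0.09 (adjusted p = 0.00883) for Pmaip1. Before LPS the difference between genotypes was already 0.58 ± 0.04 for Mcl1, 0.23 ± 0.03 for Bcl2l1, 0.22 ± 0.06 for Gadd45b and 0.30 ± 0.06 for Pmaip1. Each value above is the genotype difference at that time minus this starting difference. At 1 h the genotype difference was 0.16 ± 0.04 for Mcl1, 0.02 ± 0.03 for Bcl2l1 and -0.16 ± 0.06 for Gadd45b. That of Bcl2l1 was not called (limma adjusted p = 0.696). At 2 h it was 0.29 ± 0.04 for Mcl1, -0.27 ± 0.03 for Bcl2l1 and 0.66 ± 0.06 for Pmaip1.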

How the results depend on the processing

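Member counts moved by over 1.5 times in these settings. Between genotypes at 2 h quantile normalisation gave 5, against 8, with 4 in common (all tested genes, 6024 called, against 3386 higher and 2816 lower). LPS at 0.5 h in cells labelled FosKO gave 5 with only the groups compared, against 8 (all tested genes, 301 called, against 619 higher and 204 lower). The genotype count at 1 h in the high 18S libraries is left out, since LysM-Cre had a single library there. The difference in response at 1 h gave 5 with quantile normalisation, 5 with the 18S set as a term, 6 with a replicate block, 6 with a replicate block within genotype and 7 without the 4 replicate 3 libraries labelled FosKO (added after seeing the data), against 3, the same 3 genes being among them each time. Of all tested genes, these 5 settings called 197, 173, 201, 242 and 167 in that order, against 68 higher and 101 lower. At 2 h the difference in response gave 6 with quantile normalisation and 5 with the block within genotype, against 3. Of all tested genes, these called 2004 and 2540, against 1010 higher and 1071 lower. Under quantile normalisation 2 values reversed, Mcl1 between genotypes at 1 h (-0.0181, adjusted p = 0.766) and Bcl10 at 2 h (-0.0210, adjusted p = 0.567). The cause was not tested. Leaving out single libraries gave 5 to 7 members at 0 h, 7 to 9 at 0.5 h, 5 to 6 at 1 h and 7 to 9 at 2 h between genotypes. How many of all tested genes each of those fits called is not given. These ranges therefore describe the list only and are not compared with a background. Over the alternatives, 2595 member values kept their direction and side of the threshold, 58 passed it, 35 lost it and 2 reversed. Replicate numbers were not taken to pair the libraries, since not every same-number correlation of deviations within a genotype was over 0.1 (12 of 36, from -0.25 to 0.71, median 0.063). Different numbers gave 4 of 72 (median -0.031), and 17 of 24 libraries matched best with their own number, a hint of pairing from the data and not from the design. The block lost no member call. It added, in the difference in response, Gadd45a (adjusted p = 0.0387), Cflar (0.0303) and Pmaip1 (0.0153) at 1 h and Gadd45a at 2 h (0.0404), from 1 to 2 h in LysM-Cre Birc3 (0.0489) and Gadd45b (0.0324), at 0.5 h in cells labelled FosKO Birc2 (0.0490), and between genotypes Birc2 at 0 h (0.0185) and Bcl2l11 at 2 h (0.0437). The block within genotype gave no value between genotypes. It called the others too, and Gadd45b in the response at 2 h (0.0325). Without each library's depth, the error of a value is the spread between libraries.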
